A study of Mus musculus with 6 samples.

Results

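Of the 14 genes of the ZIP (*Slc39a*) family of metal importers, 10 are described here: *Slc39a1*, *Slc39a3*, *Slc39a4*, *Slc39a6*, *Slc39a7*, *Slc39a9*, *Slc39a10*, *Slc39a11*, *Slc39a12*, and *Slc39a13*. They were chosen by name and not by a measured value, leaving out *Slc39a8* and *Slc39a14*, and *Slc39a2* and *Slc39a5* were read beside them. The table held a row for each of them among its 53715 genes, and all 10 were among the 16330 genes that passed the filter on low counts and were tested. RNA was sequenced from the whole cerebellum of 6 male mice that were 4 weeks old, 3 of them labelled WT and 3 labelled slc39a8-KO. The labels give the strain as C57BL/6, and the methods give C57BL/6J as the background of the floxed and Cre lines. The knockouts are *Slc39a8*-NSKO mice, in which Cre recombinase driven by the Synapsin I promoter deletes the floxed *Slc39a8* alleles in neurons, while glia, endothelium, and other cells keep the gene. The sample labels call the other mice WT, while the paper speaks in one place of *Slc39a8* fl/fl controls and in another of wild-type mice, so the exact control genotype is not settled, and they are called control mice below. The comparison asks whether the other importers were expressed at a different level in cerebella whose neurons had lost *Slc39a8*.

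ZIP proteins move zinc, and for some members iron or manganese, into the cytosol, either from outside the cell or from organelles such as the Golgi and the endoplasmic reticulum. The ZnT (*Slc30a*) transporters move zinc, and ZnT10 manganese, the opposite way, and metallothioneins bind zinc within the cell. ZIP8, encoded by *Slc39a8*, and its closest relative ZIP14 carry manganese as well as zinc and iron. Most of the genes described here are known mainly as zinc transporters. In whole tissue, fewer cells of a type and less RNA per cell cannot be told apart.

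The targeted gene was low in all 6 mice. *Slc39a8* had 4.78, 3.20, and 2.83 CPM (counts scaled to the size of the library, with TMM factors) in control mice 1 to 3 and 1.90, 2.05, and 2.18 CPM in *Slc39a8*-NSKO mice 1 to 3, so that every knockout lay below every control. These are 99, 46, and 44 counts against 38, 40, and 41. The log2 fold change was −0.83 (SE 0.237), with an adjusted p of 0.534 in edgeR's quasi-likelihood test with Benjamini-Hochberg adjustment over all genes tested, and it was −0.56 without control mouse 1. The libraries held between 14431260 and 20844267 counts on genes. Markers of Purkinje cells, granule cells, molecular layer interneurons, astrocytes, oligodendrocytes, microglia, endothelium, and choroid plexus were all detected, and none of them passed the test. The summed microglia markers nevertheless did not overlap, with 66.1 to 74.6 CPM in control and 77.5 to 81.3 CPM in *Slc39a8*-NSKO mice. Of all single genes tested, 10.3% did not overlap in either direction. Of 4 listed cardiac muscle markers, the 3 that were tested passed, where 0.098% of all genes did. The other had at most 3 counts in a mouse. The 4 summed to 0.707 to 1.67 CPM in control and 9.41 to 12.3 CPM in *Slc39a8*-NSKO mice. The paper had already reported 1 of the list, *Myh6*, as higher in the knockouts. Choroid plexus markers overlapped, at 763 to 1101 CPM in control and 895 to 1544 CPM in *Slc39a8*-NSKO mice. All 5 of them had log2 fold changes above 0 (median 0.36), as had all 5 microglia markers (median 0.18), beside 50.5% of all genes. Fold changes were above 0 in 5 of 6 astrocyte and Bergmann glia markers, and in 4 of 5 Purkinje, granule, and interneuron markers each. They were above 0 in 1 of 5 endothelial and 0 of 5 oligodendrocyte markers (medians −0.06 and −0.07). The part of these markers in the results below was not tested.

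None of the 10 ZIP genes passed an adjusted p of 0.05 in edgeR, where 16 of 16330 genes did (0.098%), nor did any pass in DESeq2 or in limma-voom. At an unadjusted p below 0.05, 1 of the 10, *Slc39a7*, was called by each of these tools. EdgeR called 881 genes (5.39%), and the share of all genes was not counted for DESeq2 or limma-voom. In 4 of the 10 (*Slc39a1*, *Slc39a3*, *Slc39a6*, and *Slc39a7*), every *Slc39a8*-NSKO mouse lay above every control mouse in CPM, which was so for 828 of the genes tested (5.07%), and 10.3% of genes did not overlap in either direction. None of the 10 was lower in every knockout. Fold changes were above 0 on the log2 scale in 8 of the 10, compared with 50.5% of all genes, and the median over the 10 was 0.10, compared with 0.0011 over all genes. Without regard to sign, the median size of the log2 fold change was 0.096 over the 10 and 0.075 over all genes tested. The differences were small: leaving out the rarely counted *Slc39a4*, the fold changes ran from −0.09 to 0.16 on the log2 scale, and the standard errors from 0.054 to 0.115.

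**Figure D1:**
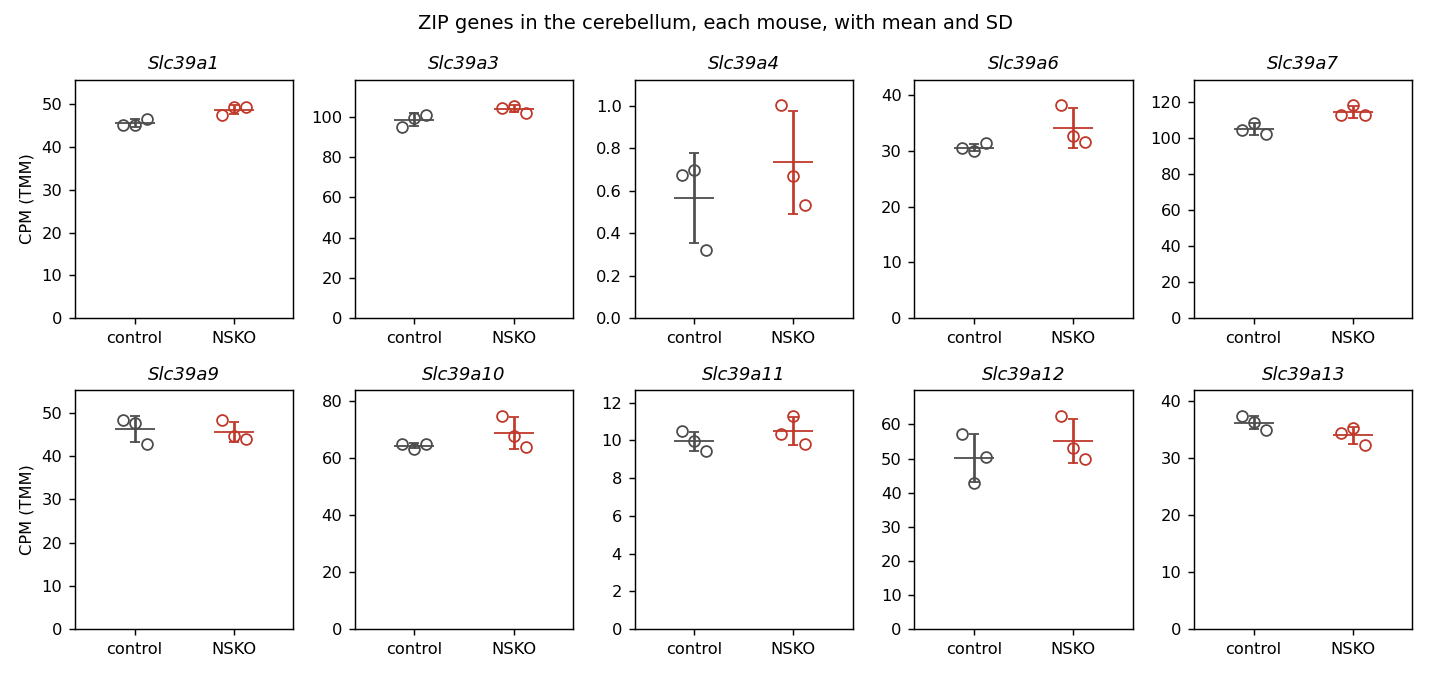
Level of each of the 10 ZIP genes in each mouse, in CPM scaled by TMM on axes that start at 0. Circles are mice, horizontal lines the mean, and bars the SD of 3 mice. *Slc39a7* lay between 102 and 109 CPM in control and between 113 and 118 CPM in NSKO mice, whereas the genotypes overlapped for *Slc39a9* and *Slc39a12*.

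Expressed per kilobase of merged exons, so that genes can be compared, the members covered a wide range. *Slc39a7* was the most abundant, with a mean over the 6 mice of 42.5 CPM per kb, above 93.7% of the 16311 tested genes with a known length. *Slc39a3* (25.2 CPM per kb), *Slc39a1* (19.97), and *Slc39a12* (17.6) followed, and *Slc39a10* (10.9), *Slc39a6* (7.95), *Slc39a13* (7.20), *Slc39a9* (4.53), and *Slc39a11* (3.04) came next. *Slc39a4*, with 0.209 CPM per kb, lay above only 4.11% of genes. Neighbors in this order did not overlap over the 6 mice, apart from *Slc39a1* and *Slc39a12*, where *Slc39a1* was higher in 5 of 6 mice, and *Slc39a6* and *Slc39a13*, where *Slc39a6* was higher in 4 of 6 mice. The places of the middle genes depended on the length used: with the longest annotated transcript in place of all exons, *Slc39a13* had 14.2 CPM per kb and stood above *Slc39a10* (12.1), and *Slc39a9* had 8.48, above *Slc39a6* (8.34).

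On the same scale, the mRNA of the gene that was deleted made up a small part of the family. Of the summed level per length of the 14 ZIP genes, *Slc39a8* held 0.330% in control and 0.177% in *Slc39a8*-NSKO mice, whereas *Slc39a7* alone held 28.6% ± 0.936 (SD, n = 3) and 29.3% ± 0.974. *Slc39a3*, *Slc39a1*, and *Slc39a12* held 17.2%, 13.6%, and 11.8% in control mice and 17.1%, 13.6%, and 12.1% in knockouts. For 1 of the 10 members the shares did not overlap between genotypes: *Slc39a13* held 5.35%, 5.25%, and 5.05% in control mice 1 to 3 and 4.57%, 4.73%, and 4.52% in *Slc39a8*-NSKO mice 1 to 3. Over all genes tested, 10.3% did not overlap in CPM, and in CPM *Slc39a13* did overlap. A share also depends on the sum it is taken of, which was 142 ± 0.576 CPM per kb in the controls and 151 ± 4.24 CPM per kb in the knockouts. These shares are of mRNA and say nothing of protein or of transport.

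**Figure D2:**
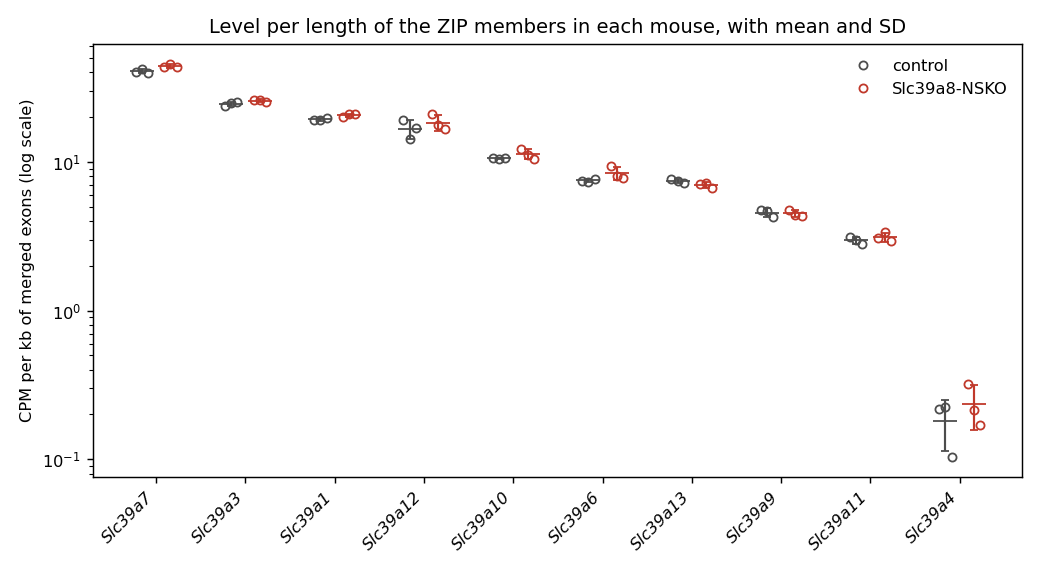
Level of the 10 ZIP genes per kilobase of merged exons, in CPM per kb on a log axis, ordered by the mean over 6 mice. Circles are mice, lines the mean, and bars the SD. The levels run from 42.5 CPM per kb for *Slc39a7* to 0.209 for *Slc39a4*, and the genotypes lie close together within each gene.

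*Slc39a1* and *Slc39a3* encode ZIP1 and ZIP3, closely related zinc importers of the plasma membrane. *Slc39a1* (ENSMUSG00000052310.9, GRCm38 chr3:90248172-90253612, plus strand) had 45.1, 45.2, and 46.6 CPM in control mice 1 to 3 and 47.6, 49.4, and 49.3 CPM in *Slc39a8*-NSKO mice 1 to 3. All 3 knockouts lay above the controls, with a gap between the groups that was narrower than the range within either of them. Its fold change was 0.10 on the log2 scale (SE 0.061), a difference of 6.82% with a 95% interval from −2.40% to 16.9%, and the adjusted p in edgeR was 0.993. *Slc39a3* (ENSMUSG00000046822.12, chr10:81028538-81037426, minus strand) had 94.8, 99.4, and 100.9 CPM in control mice and 104.5, 105.3, and 102.0 CPM in knockouts. The groups again did not overlap, but the lowest knockout and the highest control were close. Its log2 fold change was 0.08 (SE 0.054), which is 5.67% with an interval from −2.44% to 14.5% (edgeR adjusted p = 0.994). For either gene the exact two-sided permutation test gave 0.1, the smallest p that 3 mice against 3 allow.

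*Slc39a6* and *Slc39a10* encode ZIP6 and ZIP10, importers of the LIV-1 subfamily that are known to form a complex with each other at the plasma membrane. *Slc39a6* (ENSMUSG00000024270.11, chr18:24579881-24603817, minus strand) had 30.5, 29.97, and 31.4 CPM in control mice 1 to 3 and 38.2, 32.6, and 31.6 CPM in *Slc39a8*-NSKO mice 1 to 3. Knockout mouse 1 stood apart, and the lowest knockout was just above the highest control. Its fitted fold change of 0.16 on the log2 scale (SE 0.081; 95% interval −0.02 to 0.33; edgeR adjusted p = 0.954) was 0.07 without that mouse. *Slc39a10* (ENSMUSG00000025986.6, chr1:46807544-46892852, minus strand) had 64.8, 63.3, and 64.8 CPM in control mice and 74.7, 67.7, and 63.9 CPM in knockouts. The groups overlapped, since knockout mouse 3 lay among the controls, and knockout mouse 1 was again the highest. Its log2 fold change was 0.10 (SE 0.066; interval −0.05 to 0.24; adjusted p = 0.994), and 0.03 without knockout mouse 1. The controls varied little in either gene, with a coefficient of variation of 2.29% for *Slc39a6* and 1.39% for *Slc39a10*, against 10.47% and 8.002% in knockouts.

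*Slc39a12* and *Slc39a4* encode the remaining members known for zinc uptake at the cell surface, ZIP12 in the brain, where astrocytes express much of it, and ZIP4 in the intestine, where its loss causes the zinc deficiency disease acrodermatitis enteropathica. *Slc39a12* (ENSMUSG00000036949.16, chr2:14388316-14494977, plus strand) had 57.2, 42.9, and 50.4 CPM in control mice 1 to 3 and 62.5, 53.1, and 49.9 CPM in *Slc39a8*-NSKO mice 1 to 3. The genotypes overlapped, and the spread within the controls was the widest among the well-counted members, with a coefficient of variation of 14.2%. Its log2 fold change was 0.13 (SE 0.102; interval −0.09 to 0.35; edgeR adjusted p = 0.994), and 0.03 without control mouse 2 or without knockout mouse 1, 0.20 without knockout mouse 3, and 0.24 without control mouse 1. The astrocyte and Bergmann glia markers, beside which this gene may be read, summed to 3782 to 4022 CPM in control and 3991 to 4107 CPM in knockout mice, with overlap, and their part in the result was not tested. *Slc39a4* (ENSMUSG00000063354.7, chr15:76612383-76617384, minus strand) had only 14, 10, and 5 counts in control mice and 20, 13, and 10 counts in knockouts. Its fitted log2 fold change was 0.37 (SE 0.431; adjusted p = 0.994), and the interval from −0.56 to 1.30 shows that a change of moderate size was not detectable at this depth.

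*Slc39a7*, *Slc39a9*, *Slc39a11*, and *Slc39a13* encode proteins that act largely on membranes within the cell. ZIP7 releases zinc from the endoplasmic reticulum and Golgi. *Slc39a7* (ENSMUSG00000024327.15, chr17:34028269-34031682, minus strand) had 104.6, 108.8, and 102.2 CPM in control mice 1 to 3 and 112.7, 118.3, and 112.8 CPM in *Slc39a8*-NSKO mice 1 to 3. Every knockout was higher, and the groups were separated by more than the SD within either. In edgeR the log2 fold change was 0.12 (SE 0.054), a difference of 8.97% whose interval ran from 0.575% to 18.1%, and the p was 0.0376 before and 0.908 after adjustment. The gene shares 2084 exonic bases on the same strand with *Gm20427*, a processed transcript, and its expected counts were not whole in all 6 mice, so that reads may have been divided between them. *Gm20427* had 141, 113, and 149 counts in control mice and 132, 147, and 110 counts in knockouts. Added together, they had 113 ± 2.89 CPM in the controls and 121 ± 4.004 CPM in the knockouts (SD, n = 3), a log2 ratio of 0.10, still without overlap (exact permutation p = 0.1).

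ZIP13, which moves zinc out of Golgi and vesicle stores, was the one member of the intracellular group whose fold change was below 0 under each of the alternatives run. *Slc39a13* (ENSMUSG00000002105.15, chr2:91061791-91070417, minus strand) had 37.3, 36.3, and 35.0 CPM in control mice 1 to 3 and 34.4, 35.2, and 32.2 CPM in *Slc39a8*-NSKO mice 1 to 3. Knockout mouse 2 lay just above control mouse 3, so the groups overlapped. With edgeR the log2 fold change was −0.09 (SE 0.068; interval −0.24 to 0.05; edgeR adjusted p = 0.994). It shares 215 exonic bases with the antisense gene *Psmc3*, but all of its counts were whole.

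*Slc39a9* encodes ZIP9, found on the Golgi and plasma membrane, and *Slc39a11* encodes ZIP11, found on the Golgi and nucleus. *Slc39a9* (ENSMUSG00000048833.9, chr12:80643883-80683342, plus strand) had 48.4, 47.8, and 42.9 CPM in control mice and 48.4, 44.6, and 44.0 CPM in *Slc39a8*-NSKO mice. Each group held high and low mice, and the means were close. Its log2 fold change was −0.02 (SE 0.070; interval −0.17 to 0.13; edgeR adjusted p = 0.994), and it was slightly above 0 without control mouse 1 (0.01). *Slc39a9* shares 459 exonic bases with *Erh* on the other strand, and its counts were not whole in 5 of 6 mice. *Slc39a11* (ENSMUSG00000041654.15, chr11:113244853-113650079, minus strand) had 10.47, 9.94, and 9.45 CPM in control mice and 10.4, 11.3, and 9.83 CPM in knockouts, which overlapped. Its log2 fold change was 0.07 (SE 0.115; interval −0.17 to 0.32; adjusted p = 0.994), 0.02 without knockout mouse 2, 0.04 without control mouse 3, 0.12 without knockout mouse 3, and 0.12 without control mouse 1.

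**Figure D3:**
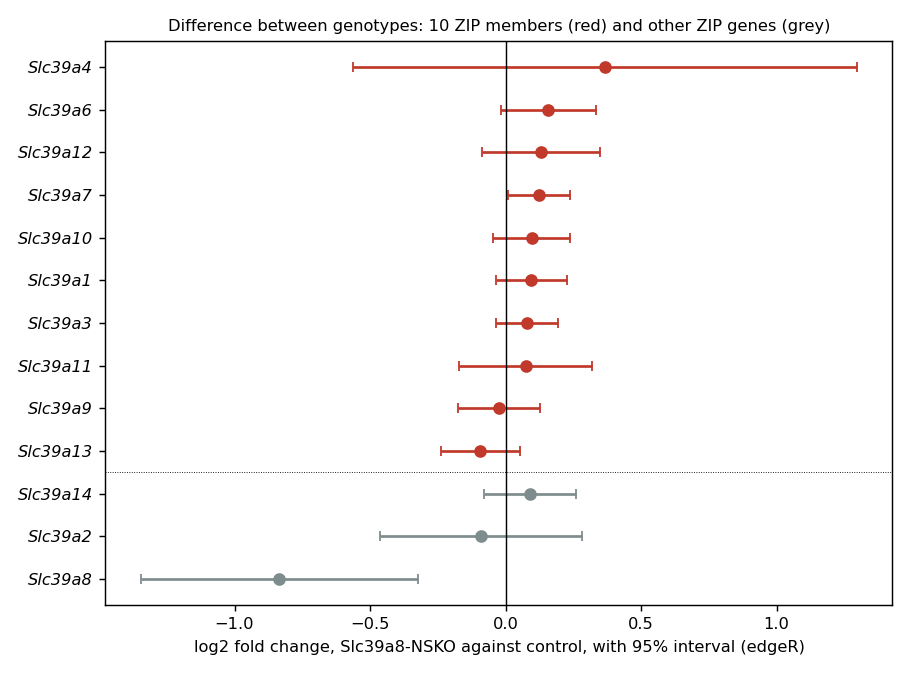
Log2 fold change of *Slc39a8*-NSKO against control mice from edgeR, with its 95% interval, for the 10 ZIP genes (red) and for *Slc39a14*, *Slc39a2*, and *Slc39a8* (grey). Among the 10, the interval of *Slc39a7* alone leaves out 0 (0.01 to 0.24), and the interval of *Slc39a4* is the widest.

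The intervals set limits on the differences that these 6 mice allow. Apart from *Slc39a4*, the highest upper bound was that of *Slc39a12*, at 27.5%, and the next were 25.9% for *Slc39a6* and 24.9% for *Slc39a11*. For *Slc39a3* the upper bound was 14.5%, and for *Slc39a9* it was 9.33%. The lowest lower bounds were those of *Slc39a13* (−15.3%), *Slc39a9* (−11.4%), and *Slc39a11* (−11.3%). These intervals are for single genes and are not adjusted for their number.

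Summed over the 10 genes, the level was 493.8, 484.3, and 484.1 CPM in control mice 1 to 3 and 534.3, 518.2, and 496.0 CPM in *Slc39a8*-NSKO mice 1 to 3. Each knockout lay above each control, with knockout mouse 3 nearest to them. The means were 487 ± 5.58 CPM (SD, n = 3) and 516 ± 19.2 CPM, a difference of 28.8 CPM or 5.91%, which was 19.7 CPM without knockout mouse 1 and 38.9 CPM without knockout mouse 3. Per kilobase the sum was 134 ± 1.47 in control and 144 ± 4.44 in knockouts (6.90% higher). Of the 28.8 CPM, *Slc39a7* contributed 9.42, *Slc39a3* 5.52, *Slc39a12* 4.99, and *Slc39a10* 4.46. Without *Slc39a12* the remaining 9 genes summed to 437 ± 3.88 and 461 ± 13.3 CPM. No test was made of the sum.

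The *Slc39a8*-NSKO mice were not alike in these genes. Taken as log2 CPM against the mean of the control mice, 9 of the 10 genes were above 0 in knockout mouse 1, 8 in knockout mouse 2, and 5 in knockout mouse 3, and the median deviations were 0.09, 0.10, and −0.0038. Knockout mouse 1 had the highest value of all 6 mice in 5 genes (*Slc39a4*, *Slc39a6*, *Slc39a9*, *Slc39a10*, and *Slc39a12*), and knockout mouse 2 had it in 4 (*Slc39a1*, *Slc39a3*, *Slc39a7*, and *Slc39a11*). Control mouse 1 was highest in *Slc39a13*. The lowest value was in a control mouse for 9 of the genes and in knockout mouse 3 for *Slc39a13*. The same counts were not made over all genes tested, so this pattern is not shown to be particular to the ZIP genes.

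**Figure D4:**
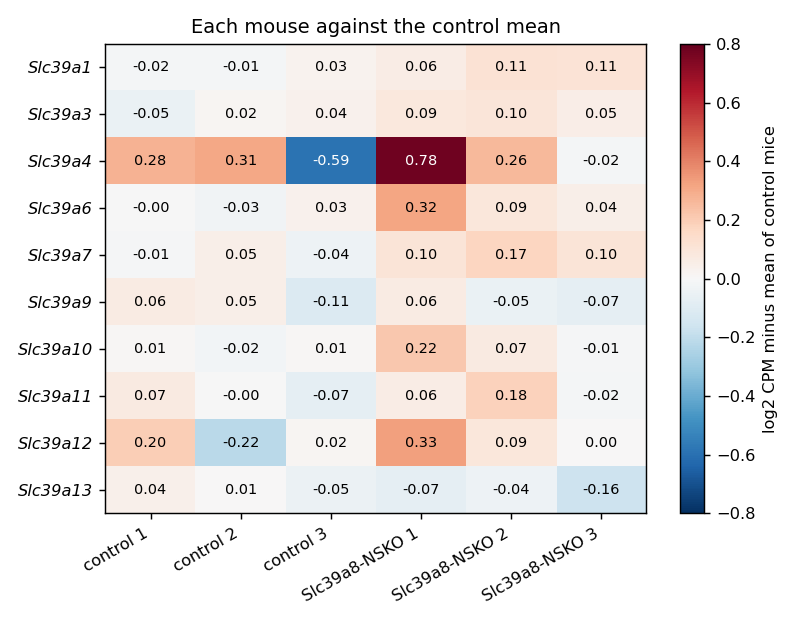
Log2 CPM of each ZIP gene in each mouse, minus the mean of the 3 control mice for that gene; red is above and blue below the control mean. The columns of NSKO mice 1 and 2 are mostly red, with 9 and 8 of 10 genes above 0, and in NSKO mouse 3 only 5 are. No such count was made over all genes.

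Some of the genes varied together over the 6 mice. Of the 45 pairs, *Slc39a6* and *Slc39a10* had the highest Pearson correlation of log2 CPM (r = 0.976, permutation p = 0.00972, adjusted over the pairs 0.219; Spearman's rho 0.829, permutation p = 0.0583, adjusted 0.438), and r was 0.719 after leaving out the 2 mice farthest from the median of *Slc39a6*. *Slc39a4* and *Slc39a9* followed (r = 0.826, permutation p = 0.00417, adjusted 0.188; rho 0.943, permutation p = 0.0167, adjusted 0.375; 0.728 without the 2 farthest mice). *Slc39a1* and *Slc39a3* were next (r = 0.798, permutation p = 0.0403, adjusted 0.531; rho 0.943, permutation p = 0.0167, adjusted 0.375; 0.885 without the 2 farthest mice). The most negative pairs all held *Slc39a13* or *Slc39a1*: *Slc39a1* with *Slc39a13* (r = −0.794, rho −0.657), *Slc39a3* with *Slc39a13* (r = −0.607, rho −0.6), and *Slc39a1* with *Slc39a9* (r = −0.566, rho −0.314), with adjusted permutation p of 0.531, 0.694, and 0.694 for r and 0.680, 0.680, and 0.898 for rho. No pair passed after adjustment, both genotypes entered each value, and 3 mice of a genotype are too few for a correlation within it. With so few mice many genes resemble any given one: between 18 and 126 genes had an r above 0.95 with each member, and the most similar was *Zkscan5* for *Slc39a7* (r = 0.990) and *Pibf1* for *Slc39a12* (r = 0.995).

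None of the other ZIP genes that were tested had a log2 fold change above the 0.16 of *Slc39a6*, the highest of the 10 apart from the rarely counted *Slc39a4*. *Slc39a8* (−0.83) lay below all 10. *Slc39a14*, the closest relative of the deleted gene, had 35.1, 29.1, and 34.3 CPM in control and 36.2, 34.7, and 34.3 CPM in *Slc39a8*-NSKO mice. Its log2 fold change was 0.09 (interval −0.08 to 0.26; edgeR adjusted p = 0.994), and 0.01 without control mouse 2, the lowest of the 6. *Slc39a2*, encoding a zinc importer, was at 14.8 ± 4.32 CPM in control and 13.7 ± 1.31 CPM in knockout mice (log2 fold change −0.09, adjusted p = 0.994). Its direction depended on the mice, with −0.32 when control mouse 1 was left out and 0.11 when control mouse 2 was, and it shares 151 exonic bases with *Mettl17* on the same strand. *Slc39a5* had at most 3 counts in a mouse and was not tested.

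A wider list of 26 metal-handling genes, made up of these other 4 ZIP genes, the ZnT transporters, the metallothioneins and their transcription factor *Mtf1*, and transporters of manganese and iron, was read beside the members. Of the 22 that were tested, none passed the adjusted threshold in edgeR (0.098% of all genes did), and 4 (*Slc30a3*, *Slc30a7*, *Slc39a8*, and *Slc40a1*) had an unadjusted p below 0.05 in edgeR, where 5.39% of all genes did. In DESeq2 1 of the 25 genes of the list with a fold change had one, and in limma-voom 6 of 22. The share of all genes was not counted for these other tools. Log2 fold changes of the 22 in edgeR were above 0 in 7 and below 0 in 15, with a median of −0.04, compared with 50.5% of all genes above 0. Apart from *Slc39a8*, the genotypes did not overlap in 4 genes, beside 10.3% of all genes. *Tfrc*, the transferrin receptor for iron uptake, was at 106 ± 4.19 CPM in the controls and 114 ± 2.46 CPM in the knockouts (log2 fold change 0.11, edgeR adjusted p = 0.931). Lower in every knockout were *Slc40a1*, the iron exporter ferroportin, at 7.10 ± 0.497 and 5.67 ± 0.545 CPM (−0.33, adjusted p = 0.908), *Slc30a3*, which loads synaptic vesicles with zinc, at 3.22 ± 1.06 and 2.09 ± 0.274 CPM (−0.62, 0.886), and *Tmem165*, a Golgi protein needed for manganese supply to glycosylation, at 27.2 ± 0.426 and 24.4 ± 1.23 CPM (−0.16, 0.916). *Slc30a3* had only 34 to 69 counts in a mouse, and its log2 fold change was −0.33 without control mouse 3 and −0.77 without control mouse 2. Of the zinc-induced metallothioneins, *Mt1* had a log2 fold change of 0.14 (adjusted p = 0.968) and *Mt2* of 0.22 (0.916), with overlapping genotypes.

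The promoters were read because one transcription factor, MTF1, is known to act on some zinc transporter genes through metal response elements. RefSeq windows of 250 bases upstream of a transcription start on GRCm38.p6 were matched for 8 of the 10 genes, with 10 windows in all. *Slc39a4* and *Slc39a6* had no window. The core searched for on both strands was TGCACNC or TGCGCNC. It was present in 3 of the 10 windows, belonging to *Slc39a3* and *Slc39a11*, and in 21.4% of 32851 windows of all genes. These stretches are shown because they hold the matches. They are printed in the sense of the gene, with the core in capitals, on the minus strand at chr10:81037433-81037479 for *Slc39a3*, and for *Slc39a11* at chr11:113650093-113650127 and, for its other start, chr11:113565929-113565975.
*Slc39a3*: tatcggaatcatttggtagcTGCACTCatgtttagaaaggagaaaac
*Slc39a11*, first window: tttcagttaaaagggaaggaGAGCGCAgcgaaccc
*Slc39a11*, other window: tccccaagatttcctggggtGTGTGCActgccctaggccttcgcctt
The core began 144 bases before the start in *Slc39a3* and 15 and 140 bases before the starts in *Slc39a11*. Of these genes *Slc39a3* did not overlap between genotypes and *Slc39a11* did, and *Slc39a1* and *Slc39a7*, which also did not overlap, held no match in their windows. The full cAMP response element TGACGTCA was in none of the 10 windows and in 1.55% of all windows. TGACG alone was in 4, those of *Slc39a1* and *Slc39a7* and both of *Slc39a11*, and in 17.8% of all windows. Whether matches of either kind go with differences between genotypes was not tested. A match is a description of the letters only, and no binding was measured.

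Other ways of processing the counts brought none of the 10 genes past the threshold. Over 15 alternatives, made up of other tests, scalings, filters, rounding, thinning to equal depth, a replicate block, and each mouse left out in turn, 149 values were computed for them. The smallest adjusted p was 0.524, for *Slc39a12* without control mouse 1. The gene at an unadjusted p below 0.05 depended on the mice: it was *Slc39a7* with all 6 mice, *Slc39a12* without control mouse 1, and *Slc39a6* without knockout mouse 3, and there was none without control mouse 3 or without knockout mouse 2. The fold change of *Slc39a7* stayed between 0.10 and 0.15 and that of *Slc39a1* between 0.09 and 0.11 over these alternatives, whereas that of *Slc39a12* ran from 0.03 to 0.24 and that of *Slc39a4* from 0.08 to 0.55.

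**Figure D5:**
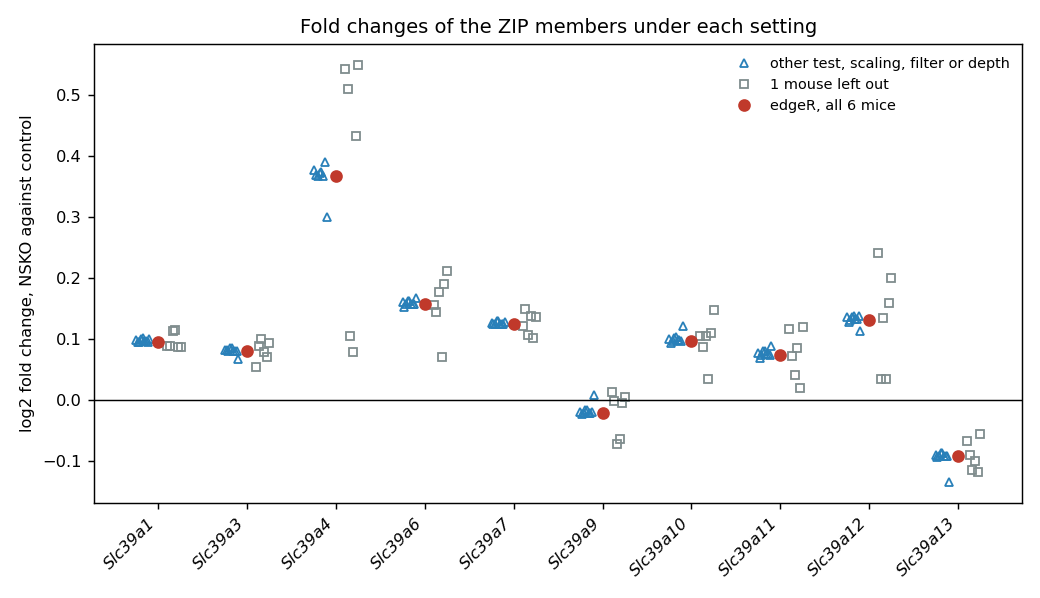
Log2 fold change of each ZIP gene with all 6 mice in edgeR (red), under another test, scaling, filter, or depth (blue), and with 1 mouse left out (grey). *Slc39a9* alone has values on either side of 0, from −0.07 to 0.01, and *Slc39a4*, with 5 to 20 counts in a mouse, spreads most.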

How the data were processed

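Cerebellar RNA of 6 mice, 3 of either genotype, was sequenced after oligo-dT priming. The authors deposited expected counts per gene and mouse, not scaled by library size or length. The methods name STAR and an Ensembl reference, and the submitters' processing notes list FastQC, STAR, RSEM, DESeq2, and mm10. Versions are not given in the sources used here, nor is the strand setting of the counting, so that reads of genes that overlap on opposite strands may be mixed.

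Names and positions came from GENCODE M21 for GRCm38, which held 53620 of the 53715 gene IDs. Counts were rounded, 92 spike-in rows were left out, and genotypes were compared in R 4.3.3 with edgeR 4.0.16 (TMM, filterByExpr, glmQLFit, glmQLFTest, no covariate), adjusted by the Benjamini-Hochberg method over the 16330 genes tested. The threshold was an adjusted p of 0.05. Intervals are 95% and use the standard error of each fit, and single genes were also compared by exact two-sided permutation of log2 CPM (prior count 2). Alternatives used DESeq2 1.42.0, limma-voom (limma 3.58.1), RLE, library size alone, no filter, at least 10 counts in every mouse, unrounded counts, libraries thinned to 14431245 counts, the replicate number as a block, and each mouse left out. The fits were also run on simulated counts, whose changed genes differed by more than any of the 10 ZIP genes did in edgeR. That run gives no rate of detection for differences as small as those of the 10 genes.

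The text names all 10 ZIP genes, the other 4, those of the metal-handling list past the threshold or without overlap between genotypes, and the 3 highest and 3 lowest correlations. *Slc30a7*, *Mt1*, *Mt2*, and 2 of the genes most like a member fall outside this and were named after their values were seen. The members and lists were chosen with earlier results of these data known. The methods state 3 mice per genotype as biological replicates, whereas the legend of the paper's principal component plot calls the samples technical replicates. If they were that, p-values would measure technical spread. No pair of libraries agreed within sampling noise.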

Additional observations from a re-analysis of the deposited data

How the results depend on the processing

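Over 15 alternatives, 146 of 149 values for the 10 ZIP genes kept their direction and stayed short of the adjusted threshold. The other 3 were of *Slc39a9*, whose log2 fold change was 0.0080 with thinned libraries, 0.012 with control mouse 1 left out, and 0.0040 with knockout mouse 3 left out. With each mouse left out it ran from −0.072 to 0.012, and the cause was not tested. The count of ZIP genes without overlap was 4 to 5 and the difference in summed level 19.7 to 38.9 CPM with each mouse left out. Groups with fewer mice overlap less readily, and the share of all genes without overlap was not counted there. These counts therefore cannot be set against the 10.3% of all genes found with every mouse kept. Over all genes, the number past the threshold was 16 in edgeR, 37 in DESeq2, 178 with no filter on low counts, 9 when knockout mouse 2 was left out, and 38 when control mouse 1 was. Of the metal-handling list, 1 gene (*Mt2*) passed with no filter. The adjusted p of *Slc39a8* ran from 0.0764 with no filter to 0.99996 in DESeq2. With the longest transcript in place of merged exons, the control level per kb was 25.9 for *Slc39a3*, 7.88 for *Slc39a6*, 43.2 for *Slc39a7*, 8.54 for *Slc39a9*, 11.7 for *Slc39a10*, 3.58 for *Slc39a11*, and 14.6 for *Slc39a13*.

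With the replicate number as a block, 41 genes passed and none of the ZIP genes did, with a smallest adjusted p of 0.591, and the log2 fold change of *Slc39a8* was −0.81 (adjusted p = 0.430). Whether the numbers pair the mice was not settled. Deviations of mice with the same number correlated at 0.142, 0.116, and 0.0104. For mice with different numbers the correlations ran from −0.177 to 0.0665, and control mouse 3 was closest to knockout mouse 1 (0.0355). *Slc39a4*, at 5 to 20 counts, was removed by the filter of 10 counts in every mouse, and its interval leaves both directions possible.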
